A study of Mus musculus with 12 samples.

Results

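The genes described are 10 surface receptors and coreceptors of lymphocytes, Cd4, Cd8a, Cd8b1, Cd28, Cd27, Cd2, Cd52, Cd5, Cd6 and Cd44, out of 19937 genes that a probe set of the array names alone. They were taken by symbol, each from its probe set with the highest mean over the arrays, and each had only 1 such probe set. All 10 had a mean at or above the filter level of 6.003 on the log2 scale and were among the 13180 genes tested. The list was proposed with earlier results of these arrays known.

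The cells were a mouse T cell acute lymphoblastic leukaemia clone, #483, with C57BL6 given as the strain, so every group comes from 1 clone. They received 4EGI-1, an inhibitor of the contact between the cap-binding factor eIF4E and its scaffold eIF4G, at 100 µM for 2 h, or the control treatment, which the labels name untreated and the protocol names DMSO. RNA came from the polysome part of a sucrose gradient, whose fractions were combined, and from the cytoplasm, a measure of mRNA amount that the titles call total and that the design text says was drawn from the same samples. The 4 groups, of 3 single-colour arrays each, were polysomal 4EGI-1, polysomal control, cytoplasmic 4EGI-1 and cytoplasmic control. The replicates are described as biological, without a statement of separate cultures, so p-values measure only the spread between these arrays, part of which may be technical.

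Values are log2 RMA values, and a change is relative to the other genes of the same array, so a loss of all polysomal RNA together would not show. In bulk RNA, fewer cells that carry a transcript and less of it per cell cannot be told apart. Of the markers of the T lineage, all 12 with a probe set of their own lay above the filter level, and Cd3e was lower with 4EGI-1 in both fractions, Cd3d lower and Rag1 higher in polysomal RNA. Above that level were also 3 of 6 markers of B cells, 2 of 7 of myeloid cells, 2 of 6 of NK cells, 2 of 2 of erythroid cells and 5 of 6 of stromal cells. Below it were Cd79a, Ms4a1 and Cd22 of the B cell list, Ncr1, Klrb1c, Klre1 and Eomes of the NK list, and Lyz2, Csf1r, Adgre1, Cd14 and Ly6g of the myeloid list. Above it were Pax5 (group means of 6.59 to 6.75), Cd79b (6.09 to 6.23) and Blnk (6.18 to 7.14) of the B cell list. Of the myeloid list Itgam (6.68 to 6.83) and Mpo (6.16 to 6.51) were above it, and of the NK list Prf1 (6.64 to 6.99) and Gzma. Gzma, with group means of 9.80 to 10.99, and Vim of the stromal list, with 8.97 to 9.23, lay far above that level. The NK list's cytotoxic genes Prf1 (-0.35 ± 0.11, SE; limma, adjusted p = 0.0315) and Gzma (-0.66 ± 0.13; 0.00137) fell in polysomal RNA, the B cell list's Blnk rose there (0.86 ± 0.11; 4.32e-05) and in cytoplasmic RNA, and the myeloid list's Mpo (0.34 ± 0.09; 0.0176) rose, and the erythroid list's Epor (-0.27 ± 0.08; 0.0377) and the stromal list's Pdgfrb (-0.31 ± 0.09; 0.0275) fell, in cytoplasmic RNA. Their part in the results below was not tested.

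Coreceptors and costimulatory receptors set how a T cell reads an antigen. CD4 and the CD8 chains bind MHC molecules beside the T cell receptor and bring the kinase LCK to it, while CD28, CD27 and CD2 add signals when they meet ligands on another cell, and CD5 and CD6 dampen or tune the response. These proteins are made on ribosomes at the endoplasmic reticulum, and many leukaemias of T cells keep the coreceptor pattern of the thymocyte stage from which they arose. Polysomal RNA reports how much of an mRNA there is and how much of it carries several ribosomes, and the cytoplasmic RNA is the measure of how much there is.

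With 4EGI-1, Cd52, Cd27 and Cd2 fell in polysomal RNA and in cytoplasmic RNA, and no member passed in the higher direction in either. In each fraction 3 of the 10 members passed in the lower direction (limma over all genes tested, adjusted p under 0.05), where 12.1% of all genes tested were called lower in polysomal RNA and 7.79% in cytoplasmic RNA. Called higher were 0 of 10 members in each fraction, where 13.0% of all genes tested were in polysomal and 10.1% in cytoplasmic RNA. At an unadjusted p under 0.05, 6 members were lower and 1, Cd4, higher in polysomal RNA, where 18.4% and 16.7% of all genes tested were. In cytoplasmic RNA 4 were lower and 0 higher, where 15.3% and 15.2% were. The median change of the members was -0.22 in polysomal and -0.14 in cytoplasmic RNA, against a median of -0.03 over all genes tested in each. The calls of the 3 genes were present under all alternatives in which they were tested, 25 for Cd27 and Cd2 and 24 for Cd52, which a filter at the 60th percentile left out. Across these the adjusted p-values (limma) in cytoplasmic RNA reached 0.0475 for Cd2, 0.0274 for Cd27 and 0.00567 for Cd52.

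**Figure D1:**
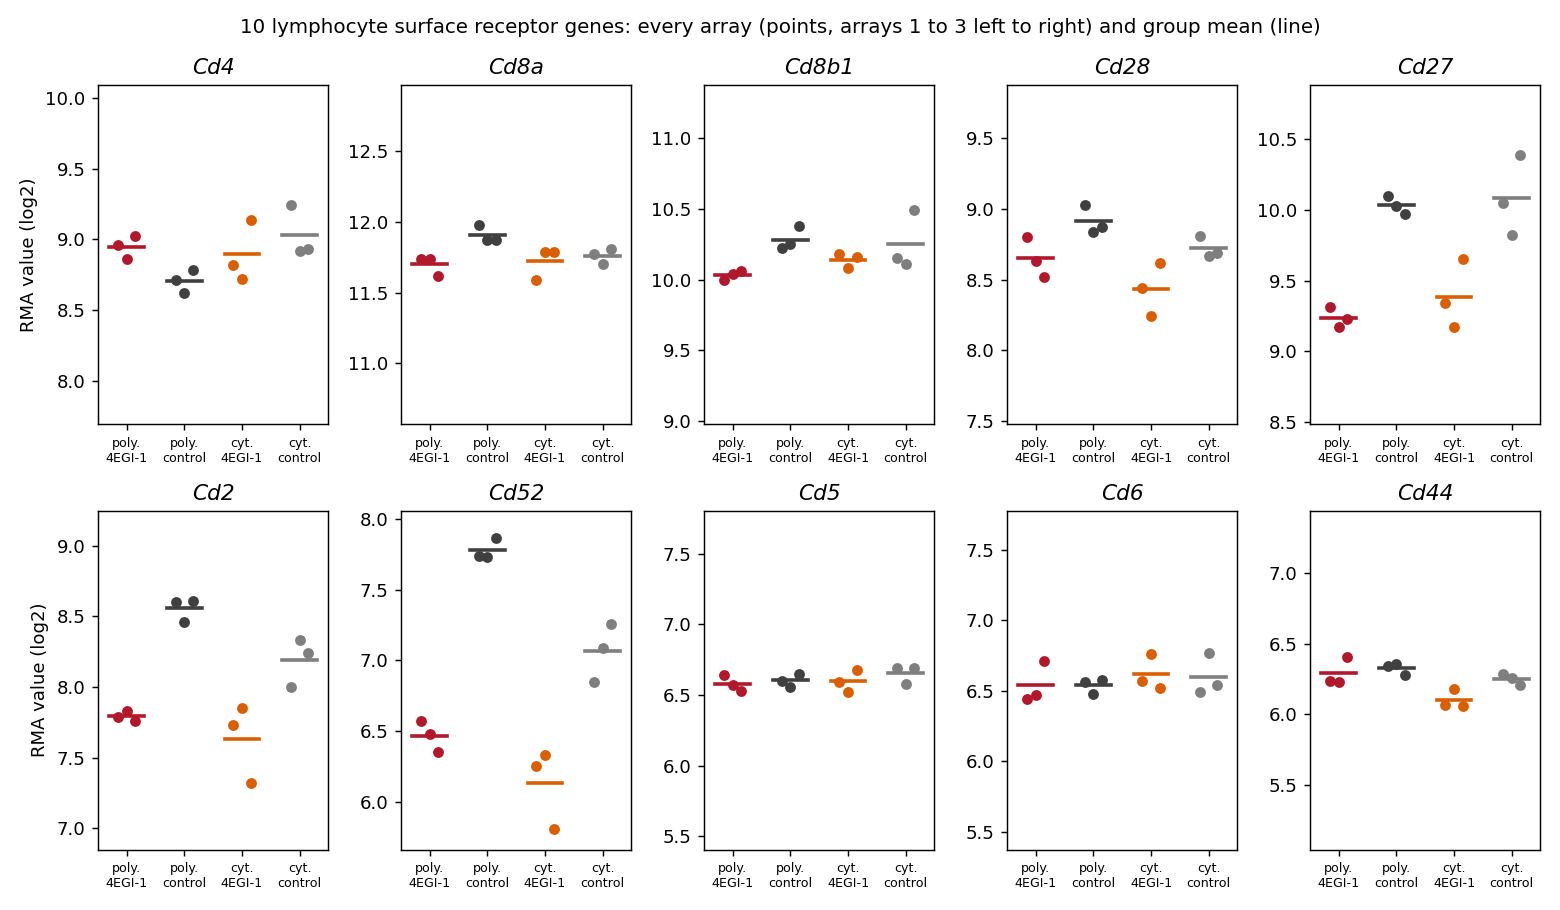
RMA value (log2, y axis) of the 10 genes on every array, by group (x axis, polysomal 4EGI-1, polysomal control, cytoplasmic 4EGI-1 and cytoplasmic control). Points are arrays 1 to 3 from left to right, lines are means of 3 arrays, and each panel spans the same log2 range around its own centre. The 4EGI-1 arrays of Cd52, Cd27 and Cd2 lie below the control arrays in both fractions, while the groups of Cd5 and Cd6 overlap.

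Cd52 encodes a very small glycoprotein held in the membrane of lymphocytes by a lipid anchor, known in humans as the target of the antibody alemtuzumab. In polysomal RNA it read 6.57, 6.48 and 6.35 with 4EGI-1, against 7.74, 7.73 and 7.87 in control. The groups were 1.15 apart at their nearest arrays. The change was -1.31 ± 0.13 (SE, n = 3 arrays per group), 0.403 of the control value (limma, adjusted p = 4.23e-06), and only 4 of the 13180 genes tested had a more negative one. In cytoplasmic RNA Cd52 read 6.25, 6.33 and 5.81 with 4EGI-1, against 6.85, 7.09 and 7.26 in control, again without overlap, a change of -0.93 ± 0.13 (limma, adjusted p = 0.000161). With 4EGI-1 the cytoplasmic values lay around the filter level of 6.003, so the signal there was dim and the size of that change is uncertain. The polysomal values with 4EGI-1 were also not far above that level, so the size of the polysomal change is uncertain as well.

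Cd27 encodes a receptor of the tumour necrosis factor receptor family whose ligand is CD70. In polysomal RNA it read 9.31, 9.17 and 9.23 with 4EGI-1, against 10.10, 10.03 and 9.97 in control, with a gap of 0.66 between the groups. The change was -0.80 ± 0.13, 0.575 of the control value (limma, adjusted p = 0.00041). In cytoplasmic RNA it read 9.34, 9.17 and 9.65 with 4EGI-1, against 10.05, 9.82 and 10.39 in control. Array 3 was the highest and array 2 the lowest in both cytoplasmic groups, and the groups were 0.17 apart at their nearest arrays. This change was -0.70 ± 0.13, 0.618 of the control value (limma, adjusted p = 0.00199).

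Cd2 encodes an adhesion receptor of the immunoglobulin superfamily, which in mice binds CD48. In polysomal RNA it read 7.79, 7.83 and 7.76 with 4EGI-1, against 8.60, 8.46 and 8.61 in control. The arrays within each of these groups were close and the groups were 0.63 apart, a change of -0.76 ± 0.12, 0.590 of the control value (limma, adjusted p = 0.000274). In cytoplasmic RNA it read 7.73, 7.85 and 7.32 with 4EGI-1, against 8.00, 8.33 and 8.24 in control. The gap was 0.14 and array 3 was the low one with 4EGI-1, and the change was -0.55 ± 0.12, 0.682 of the control value (limma, adjusted p = 0.00501).

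Cd28 encodes the main costimulatory receptor for CD80 and CD86. It read 8.80, 8.63 and 8.52 in polysomal 4EGI-1 arrays, against 9.03, 8.84 and 8.87 in polysomal control arrays, and 8.44, 8.24 and 8.62 in cytoplasmic 4EGI-1 arrays, against 8.81, 8.67 and 8.69 in cytoplasmic control arrays. Neither pair of groups overlapped, but the gaps were only 0.03 and 0.05. The changes of -0.26 ± 0.10 in polysomal RNA (limma, adjusted p = 0.079; 95% interval -0.48 to -0.04) and -0.29 ± 0.10 in cytoplasmic RNA (0.066; -0.51 to -0.07) did not pass. Without cytoplasmic 4EGI-1 array 3 they were -0.26 and -0.38 and both passed (limma, adjusted p = 0.0451 and 0.015), and without polysomal 4EGI-1 array 1 the polysomal change was -0.34 (0.047). Both changes also passed after quantile normalisation of all arrays (limma, adjusted p = 0.0479 polysomal and 0.0327 cytoplasmic) or within fractions (0.0427 and 0.037), so the call of Cd28 depends on the setting.

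Cd8a and Cd8b1 encode the α and β chains of the CD8 coreceptor, and the β chain reaches the surface only with the α chain. Cd8a read 11.74, 11.74 and 11.62 in polysomal 4EGI-1 arrays, against 11.98, 11.87 and 11.87 in polysomal control arrays. Cd8b1 read 10.00, 10.04 and 10.06 in polysomal 4EGI-1 arrays, against 10.22, 10.25 and 10.38 in polysomal control arrays. All 4EGI-1 arrays of both genes lay below all control arrays, by 0.13 and 0.15 at the nearest. The fit of all arrays gave -0.20 ± 0.08 for Cd8a (limma, adjusted p = 0.0793) and -0.25 ± 0.10 for Cd8b1 (0.0756), and neither passed. With the trend and robust options of eBayes, Cd8a passed (limma, adjusted p = 0.028), where 12.6% of all genes tested were called lower. The polysomal call of Cd8a thus depends on the setting.

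The polysomal arrays spread less than the cytoplasmic ones, with a median standard deviation per gene of 0.0761 in polysomal 4EGI-1 and 0.0745 in polysomal control, against 0.121 in cytoplasmic 4EGI-1 and 0.133 in cytoplasmic control. A fit of the 6 polysomal arrays alone called Cd8a (limma, adjusted p = 0.0269), Cd8b1 (0.0103) and Cd28 (0.0264) lower and Cd4 (0.0148) higher with the same changes. That made 6 members lower and 1 higher, and the same fit called 20.4% of all genes tested lower and 17.8% higher, so calls were more frequent in general than in the fit of all arrays. In cytoplasmic RNA, Cd8a had -0.04 ± 0.08 (limma, adjusted p = 0.791; 95% interval -0.21 to 0.13) and Cd8b1 had -0.11 ± 0.10 (0.488; -0.31 to 0.10), and their groups overlapped. Without cytoplasmic control array 3, the high one for Cd8b1 at 10.49, the polysomal change of Cd8b1 passed in the fit of all remaining arrays (limma, adjusted p = 0.017).

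Cd4 encodes the coreceptor for MHC class II. It read 8.96, 8.86 and 9.02 in polysomal 4EGI-1 arrays, against 8.71, 8.62 and 8.78 in polysomal control arrays, and each 4EGI-1 array was above each control array. In cytoplasmic RNA it read 8.82, 8.72 and 9.14 with 4EGI-1, against 9.24, 8.92 and 8.93 in control, which overlapped. The changes were 0.24 ± 0.11 in polysomal RNA (limma, adjusted p = 0.135) and -0.14 ± 0.11 in cytoplasmic RNA (0.44), and neither passed.

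Cd5 and Cd6 encode related receptors with scavenger-type domains, CD5 being a brake on T cell receptor signals and CD6 a receptor for ALCAM, and Cd44 encodes a receptor for hyaluronan. All their values lay between 6.06 and 6.77 on the 12 arrays, not far above the filter level. The polysomal changes were -0.02 ± 0.07 for Cd5, 0.00 ± 0.10 for Cd6 and -0.03 ± 0.08 for Cd44, and the cytoplasmic ones -0.06 ± 0.07, 0.02 ± 0.10 and -0.15 ± 0.08, with adjusted p-values (limma) from 0.203 to 0.998. The 95% intervals spanned at most -0.31 to 0.23, so larger changes of the measured signal were outside them. These signals were dim, so the intervals do not bound the change of the transcripts. Only the cytoplasmic arrays of Cd44 did not overlap, at 6.07, 6.18 and 6.06 with 4EGI-1, against 6.29, 6.26 and 6.21 in control, with a gap of 0.03.

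Counting arrays without a fit, 6 of the 10 members had all polysomal 4EGI-1 arrays below all polysomal control arrays, and 1, Cd4, had them all above, where 27.1% and 21.6% of all genes tested did. In cytoplasmic RNA 5 members lay below, Cd52, Cd27, Cd2, Cd28 and Cd44, and 0 above, where 12.8% and 13.8% of all genes tested did.

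**Figure D2:**
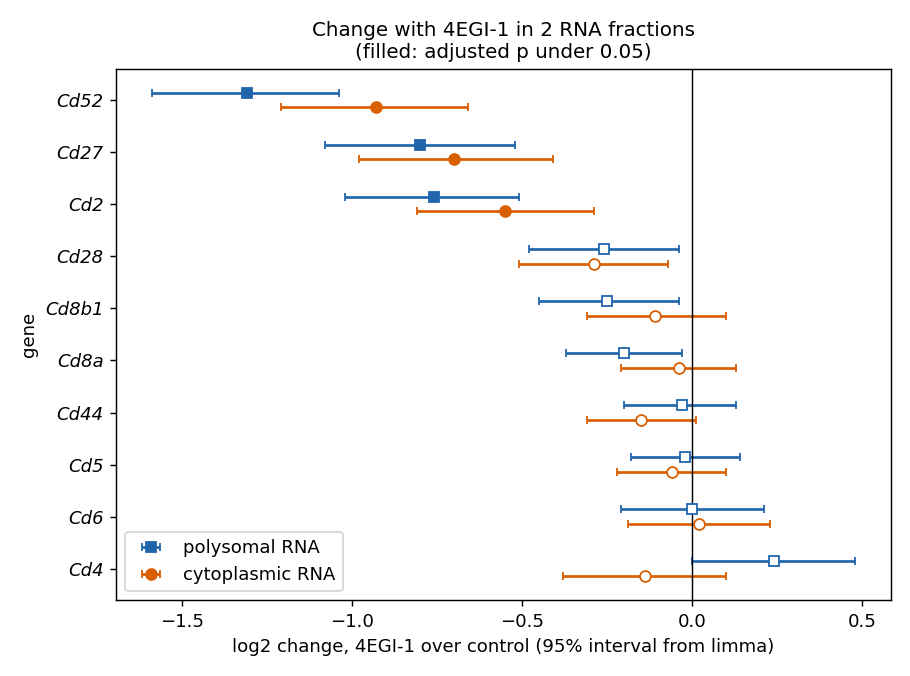
log2 change, 4EGI-1 over control, of each gene (y axis) in polysomal RNA (squares) and cytoplasmic RNA (circles), with 95% intervals from limma and filled symbols for an adjusted p under 0.05. Cd52, Cd27 and Cd2 are filled in both fractions, and Cd4 has its polysomal value right of 0 and its cytoplasmic value left of it.

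The test of whether a polysomal change went beyond the cytoplasmic one is the difference of the effects, polysomal minus cytoplasmic. It passed for 0 of the 10 members in either direction (limma, adjusted p under 0.05), where 2.31% of all genes tested were called higher and 0.607% lower. At an unadjusted p under 0.05 there was 1 member higher, Cd4, with 0.38 ± 0.16 (limma, adjusted p = 0.289), and 0 lower, where 6.73% of all genes tested were higher and 6.87% lower. For Cd52 the difference was -0.38 ± 0.18 (limma, adjusted p = 0.393), for Cd2 -0.21 ± 0.17 (0.679) and for Cd27 -0.10 ± 0.19 (0.889), with 95% intervals of -0.77 to 0.01, -0.57 to 0.15 and -0.50 to 0.30. The lower values of Cd52, Cd27 and Cd2 in polysomal RNA were thus not shown to exceed those in cytoplasmic RNA. For Cd28, Cd8a, Cd8b1, Cd5, Cd6 and Cd44 the differences lay between -0.16 and 0.12. Without any single array, 0 members passed, where 1.36% to 3.12% of all genes tested were called higher and 0.144% to 1.97% lower. With both cytoplasmic arrays numbered 2 left out, a setting added after the data were seen, 0 passed as well, with -0.29 for Cd52 (limma, adjusted p = 0.503) and 0.35 for Cd4 (0.288). With both numbered 3 left out, added at the same time, Cd52 (-0.63; limma, adjusted p = 0.013) and Cd4 (0.56; 0.0303) passed, and that fit called 3.34% of all genes tested higher and 2.11% lower.

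**Figure D3:**
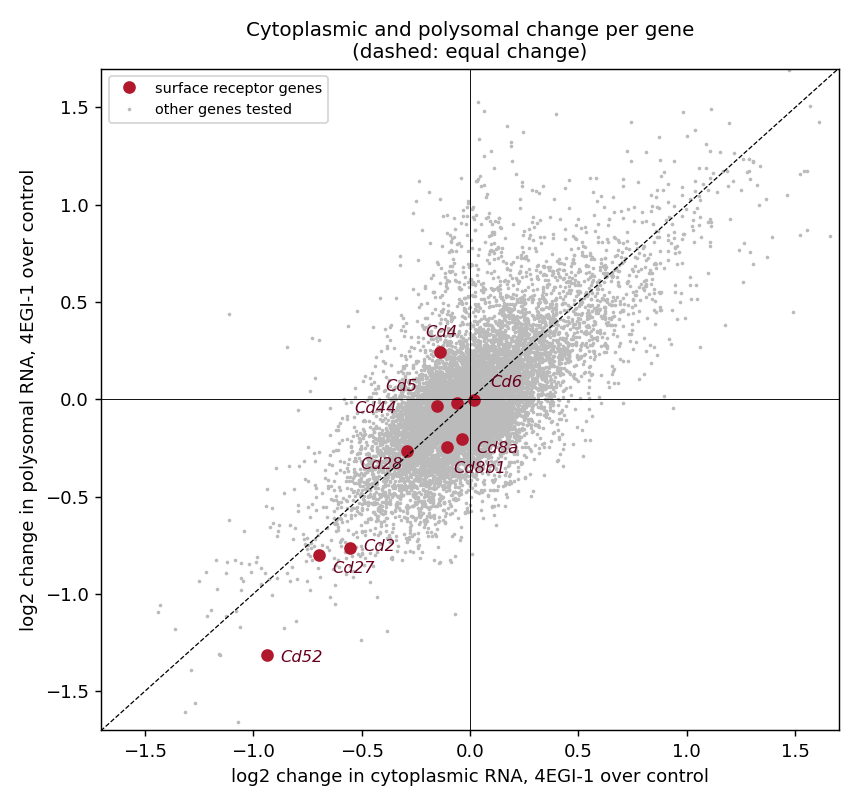
Each point is 1 gene tested, with its log2 change (4EGI-1 over control) in cytoplasmic RNA on the x axis and in polysomal RNA on the y axis. Red points are the 10 surface receptor genes, the dashed line marks equal change, and 11 genes lie outside the range drawn. Cd52, Cd27 and Cd2 lie at the lower left and Cd4 alone among the members lies well above the dashed line at the left of the vertical zero.

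The spread of a transcript between the fractions was compared next, as polysomal minus cytoplasmic value, which is relative to the other genes of the arrays. In 4EGI-1 cells 0 of the 10 members passed in either direction (limma, adjusted p under 0.05), where 9.56% of all genes tested were called higher and 7.15% lower in polysomal RNA. At an unadjusted p under 0.05 there were 2 higher, Cd44 (0.19 ± 0.08; limma, adjusted p = 0.105) and Cd52 (0.34 ± 0.13; 0.0906), and 0 lower, where 16.5% of all genes tested were higher and 14.2% lower. Their polysomal arrays lay above the cytoplasmic ones, as did 19.7% of all genes tested, and those of Cd8b1 lay below, as did 17.0%. In control cells Cd52 and Cd2 were higher and Cd4 lower in polysomal RNA, where 16.7% of all genes tested were called higher and 12.2% lower. Without a fit, 4 members had all polysomal control arrays above all cytoplasmic control arrays, Cd52, Cd2, Cd28 and Cd8a, and 1, Cd4, had them below, where 21.5% and 19.9% of all genes tested did.

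In control cells Cd52 averaged 7.78 ± 0.08 in polysomal and 7.06 ± 0.21 in cytoplasmic RNA (SD, n = 3 each), a difference of 0.71 ± 0.13 (SE; limma, adjusted p = 0.00076). Cd2 averaged 8.56 ± 0.09 in polysomal and 8.19 ± 0.17 in cytoplasmic RNA, a difference of 0.37 ± 0.12 (limma, adjusted p = 0.0314), and without cytoplasmic control array 1 this was 0.27 (0.148). Leaving out polysomal control array 1 (0.35; 0.101) or 3 (0.34; 0.0997) also ended the call of Cd2. Cd4 averaged 8.70 ± 0.08 in polysomal and 9.03 ± 0.18 in cytoplasmic RNA, a difference of -0.33 ± 0.11 (limma, adjusted p = 0.0386). This call ended without cytoplasmic control array 1, the high one at 9.24 (-0.22; 0.185), without polysomal control array 1, 2 or 3 (adjusted p = 0.0918, 0.131 and 0.0561) and without polysomal 4EGI-1 array 1 (0.0521).

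The order of the 4 groups differed between the members. For Cd52 and Cd2 polysomal control was highest, then cytoplasmic control, polysomal 4EGI-1 and cytoplasmic 4EGI-1, and the lowest pair of groups was not shown to differ. The middle pair differs in treatment and in fraction and was not tested. For Cd27 both control groups, with means of 10.03 and 10.09, stood above both 4EGI-1 groups, with 9.23 and 9.39, and the fractions did not pass within a treatment. For Cd4 polysomal control was lowest at 8.70, and the other 3 means lay between 8.89 and 9.03.

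Promoter sequences of RefSeq (GRCm38.p6) were at hand for 4 members, Cd27, Cd5, Cd8a and Cd44. Cd27 RNA fell in both fractions, while Cd8a was not called in either by the fit of all arrays without trend. The 120 bases before the most upstream annotated start are shown for Cd27 and Cd8a. They run 5′ to 3′ on the gene's strand, at chr6:125237137-125237256 (minus strand) and chr6:71373307-71373426 (plus strand), and capitals mark the E-box letters CANNTG.
Cd27: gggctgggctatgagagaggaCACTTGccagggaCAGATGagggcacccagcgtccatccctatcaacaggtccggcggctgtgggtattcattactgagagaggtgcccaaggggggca
Cd8a: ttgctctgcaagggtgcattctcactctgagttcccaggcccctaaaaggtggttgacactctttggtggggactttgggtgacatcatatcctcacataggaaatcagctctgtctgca
On both strands, Cd27 held 2 E-box matches and Cd8a 0, while of the other members, neither of them called with 4EGI-1, Cd5 held 1 and Cd44 0. Of all 32851 promoter windows of that length, 40.2% held at least 1. The windows of all promoters ended at a fixed place in each sequence and were not moved to the most upstream annotated start. The letters TGTGGT, bound by RUNX factors, were in none of these 4 windows, and in 6.72% of all windows. E-boxes are bound by the E proteins of lymphocytes, and a match of letters is not evidence of binding.

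In a ranking by correlation, symbols of Gm or LOC with a number and those ending in Rik were left out. Over the 12 arrays the remaining genes whose values were most like those of Cd52 were the kinase gene Stk39 (Pearson's r = 0.984), the small GTPase gene Rras2 (0.981) and the trafficking gene Trappc1 (0.98). Those most like Cd27 were the HSP40 chaperone gene Dnajb1 (0.982), the RNA-binding protein gene Rbm38 (0.979) and the Rab-regulator gene Tbc1d2b (0.978). For Cd2 they were Cd52 (0.979), Stk39 (0.966) and Nudt4 (0.961). All arrays of 4 groups enter these correlations, so they follow the group means, and all these genes fell in both fractions (limma, adjusted p under 0.05), with changes of -1.31 to -0.31 in polysomal RNA and -0.93 to -0.24 in cytoplasmic RNA. Among the members, Cd2 and Cd52 had the highest correlation (0.98) and Cd2 and Cd4 the lowest (-0.56).

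Other genes around these receptors, on 7 lists, gave 78 further genes tested. In polysomal RNA 17 fell and 6 rose, which is 21.8% and 7.69%, beside 12.1% and 13.0% of all genes tested. In cytoplasmic RNA 16 fell and 5 rose, which is 20.5% and 6.41%, beside 7.79% and 10.1%. Their median change was -0.09 in polysomal and -0.13 in cytoplasmic RNA. The lists were chosen with earlier results of these data known, so these shares are not an independent comparison.

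Of 4 ligands tested, 1 fell in polysomal RNA, and 1 fell and 1 rose in cytoplasmic RNA. Cd48, the mouse ligand of CD2, had -0.40 ± 0.12 in polysomal RNA (limma, adjusted p = 0.0232) and -0.39 ± 0.12 in cytoplasmic RNA (0.0349). Cd80, a ligand of CD28, had 0.17 ± 0.15 in polysomal RNA (limma, adjusted p = 0.486) and rose by 0.55 ± 0.15 in cytoplasmic RNA (0.0208). The CD27 ligand gene Cd70 and the CD6 ligand gene Alcam were below the filter level.

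Of 17 genes for partners inside the cell, 3 fell in polysomal and 2 in cytoplasmic RNA, and 0 rose in either. Siva1, whose protein binds the tail of CD27, fell by 0.52 ± 0.11 in polysomal RNA (limma, adjusted p = 0.0023), with -0.23 ± 0.11 in cytoplasmic RNA (0.177). Pik3r1, a regulatory subunit of PI 3-kinase, which CD28 recruits, fell in both (-0.30 ± 0.08 and -0.35 ± 0.08). Ptpn6, which encodes the phosphatase SHP-1, fell in both as well (-0.31 ± 0.08 and -0.25 ± 0.08).

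Of 12 other costimulatory and inhibitory receptors, 3 fell and 2 rose in each fraction. Icos, a relative of Cd28, fell by 0.63 ± 0.10 in polysomal and by 0.47 ± 0.10 in cytoplasmic RNA. The control means of Icos were 6.64 in polysomal and 6.45 in cytoplasmic RNA. With 4EGI-1 its means lay around the filter level in both fractions, so the size of its fall is uncertain. Cd160, an immunoglobulin-type receptor, fell by 0.68 ± 0.12 and 0.53 ± 0.12. Tnfrsf4, which encodes OX40, a relative of CD27, rose by 0.45 ± 0.10 and 0.58 ± 0.10. Ctla4, which encodes the inhibitory receptor for the same ligands as CD28 and was singled out after its values were seen, rose by 0.78 ± 0.15 in polysomal RNA (limma, adjusted p = 0.00104) and by 0.77 ± 0.15 in cytoplasmic RNA (0.0019).

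Of 11 genes of the SLAM family and other lymphocyte receptors, 3 fell and 2 rose in polysomal RNA, and 2 fell and 1 rose in cytoplasmic RNA. Cd69, an early marker of activation, rose by 0.69 ± 0.14 in polysomal and by 0.85 ± 0.14 in cytoplasmic RNA. Its means were 6.35 in polysomal and 6.72 in cytoplasmic RNA with 4EGI-1, against 5.65 and 5.87 in control. The control means lay below the filter level, so Cd69 was tested only because of its 4EGI-1 arrays, and the size of its rise is uncertain. Ptprcap, a partner of CD45, fell by 0.40 ± 0.10 and 0.45 ± 0.10. Ptprc, which encodes CD45 itself, rose by 0.30 ± 0.07 in polysomal RNA (limma, adjusted p = 0.00523), with 0.04 ± 0.07 in cytoplasmic RNA (0.72).

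Of 6 genes for surface proteins that are lipid-anchored or small, as CD52 is, 2 fell in polysomal and 1 in cytoplasmic RNA, and 0 rose. Cd24a (-0.28 ± 0.10 and -0.42 ± 0.10) fell in both, while Ly6k fell in polysomal RNA (-0.36 ± 0.08) and had -0.22 ± 0.08 in cytoplasmic RNA (limma, adjusted p = 0.0793). Of 14 adhesion and homing receptors, 2 fell and 1 rose in polysomal RNA and 3 fell and 0 rose in cytoplasmic RNA. The chemokine receptor gene Ccr4 fell in both (-0.57 ± 0.08 and -0.71 ± 0.08). The integrin gene Itgae rose by 0.47 ± 0.08 in polysomal RNA, with a cytoplasmic change of -0.02 ± 0.08, and the difference of effects passed at 0.49 (limma, adjusted p = 0.0278). Icam2, an adhesion ligand, had -0.02 ± 0.10 in polysomal RNA, fell by 0.57 ± 0.10 in cytoplasmic RNA, and had a difference of 0.55 (0.0459).

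Of 15 cytokine receptors, 4 fell and 1 rose in polysomal RNA, and 5 fell and 1 rose in cytoplasmic RNA. Il2ra, the α chain of the interleukin 2 receptor, rose by 0.58 ± 0.09 in polysomal and by 0.74 ± 0.09 in cytoplasmic RNA. The chains of the interferon γ receptor, Ifngr1 (-0.49 ± 0.08 and -0.41 ± 0.08) and Ifngr2 (-0.59 ± 0.10 and -0.55 ± 0.10), fell in both fractions, with adjusted p-values (limma) from 0.000347 to 0.00243.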

How the data were processed

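RNA of 4 groups of 3 arrays was labelled with biotin and measured on single-colour whole-transcript arrays. The deposited values are on the log2 scale and were made by the authors with RMA, per the submitters' processing notes; its version, and whether the 12 arrays were normalised together, is not given in the sources used here. Array medians lay between 6.40 and 6.56. Of 34760 probe sets, 21640 had 1 gene symbol, 1321 several and 11799 none. Symbols come from the platform annotation, updated through Entrez numbers with RefSeq genes of GRCm38.p6. The brightest probe set on average stood for each gene, and testing was limited to genes averaging at least 6.003, the 40th percentile over probe sets.

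For 13180 genes, the means of the 4 groups were fitted together (limma 3.58.1, lmFit and eBayes without trend, run under R 4.3.3). The Benjamini-Hochberg adjustment covered every gene tested, with a threshold of 0.05. Adjusted p-values are from limma, errors of changes are standard errors and those of group means standard deviations. The code was tested on simulated data. The members and lists were chosen with earlier results of these data known. All members are named, with up to 3 passing genes of smallest p from each other list, and the 3 genes most like Cd52, Cd27 and Cd2. Deviations of arrays with the same number in different groups correlated at -0.216 to 0.562 (median 0.092), and those with other numbers at -0.7 to 0.412 (median -0.029). Between the cytoplasmic groups, equal numbers gave -0.216 for array 1, 0.562 for array 2 and 0.516 for array 3. Arrays were not treated as pairs in the main fit, which does not show that they are independent. Alternatives are given at the end. The number of arrays limits the precision.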

Additional observations from a re-analysis of the deposited data

How the results depend on the processing

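The calls of Cd52, Cd27 and Cd2 held in both fractions under every alternative in which they were tested, with changes of -1.37 to -1.25, -0.84 to -0.77 and -0.81 to -0.73 in polysomal RNA, and -1.04 to -0.68, -0.83 to -0.54 and -0.66 to -0.37 in cytoplasmic RNA. Their highest adjusted p-values (limma) in cytoplasmic RNA were 0.00567, 0.0274 and 0.0475. A fit of the cytoplasmic arrays alone called 2.8% of all genes tested lower and 5.55% higher, against 7.79% and 10.1% in the fit of all arrays. Of 1200 values of single members under an alternative, 1094 kept direction and side of the threshold, 34 gained a call, 11 lost one and 61 changed sign, none of the last from or to a call. In polysomal RNA, 6 members were lower and 1 higher in a fit of that fraction alone (20.4% of all genes tested lower, 17.8% higher) and with array weights by fraction (20.4% and 17.9%), and 5 were lower and 1 higher without both cytoplasmic arrays numbered 3 (17.4% and 15.9%), against 3 and 0 (12.1% and 13.0%). With the array number as a replicate block, 5 members were lower in polysomal RNA (13.7% of all genes tested), with Cd28 (limma, adjusted p = 0.0479) and Cd8b1 (0.0437) gained, and Cd28 passed in cytoplasmic RNA (0.0387); a random block by culture changed no count of members. Whether equal numbers mark a shared culture or day is not stated, and pairs of equal treatment and number correlated at 0.019 to 0.228 across fractions. In the difference of effects, 1 member was higher and 1 lower without both cytoplasmic arrays numbered 3 (3.34% and 2.11% of all genes tested), against 0, and 0 without both numbered 2. For polysomal against cytoplasmic RNA in 4EGI-1 cells, 2 members (Cd52 and Cd44) were higher after quantile normalisation of all arrays (10.9% of all genes tested) or centring on array medians (16.7%) and 1 without both cytoplasmic arrays numbered 2 (Cd52; 8.91%) or 3 (Cd28; 11.9%), against 0 (9.56%). Leaving out 1 array each gave 0 to 1 there (4.17% to 11.4% of all genes tested). The 1 was Cd52 without cytoplasmic 4EGI-1 array 2 (0.44; limma, adjusted p = 0.0488), where 6.78% of all genes tested were called higher. In control cells, 1 member was higher without a filter (9.77%), where Cd2 did not pass, and with the 60th percentile filter (25.2%), which left Cd52 out, against 2 (16.7%); 0 were lower, against 1 (Cd4), without a filter (6.99%) and after median centring (7.08%, against 12.2%). Leaving out 1 array each gave 1 to 2 higher and 0 to 1 lower in control cells, where 12.5% to 17.8% of all genes tested were called higher and 8.69% to 14.6% lower. The causes were not tested.

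The changes of sign concerned values near 0. In cytoplasmic RNA Cd6 had 0.00 under the 3 other scalings and Cd8b1 0.00 without both cytoplasmic arrays numbered 3; in polysomal RNA Cd6 had 0.00 after quantile normalisation of all arrays. In the difference of effects Cd6 had 0.00 under the 3 scalings and Cd28 had -0.04 without both cytoplasmic arrays numbered 2. In 4EGI-1 cells, polysomal minus cytoplasmic, quantile normalisation gave Cd5 0.09 and Cd6 0.02, median centring gave Cd5 0.08, Cd6 0.02 and Cd8a 0.08, and leaving out both cytoplasmic arrays numbered 2 or 3 gave Cd4 -0.03 and Cd8a 0.01, or Cd5 0.03 and Cd8a 0.01. In control cells quantile normalisation gave Cd5 0.03, Cd6 0.01 and Cd8b1 -0.01, median centring gave Cd27 0.02, Cd5 0.03 and Cd6 0.02, and leaving out both cytoplasmic arrays numbered 2 or 3 gave Cd6 0.02 and Cd8b1 -0.04, or Cd27 0.10. With 1 array left out, the ranges that crossed 0 were, in cytoplasmic RNA, -0.05 to 0.10 for Cd6, -0.07 to 0.03 for Cd8a and -0.18 to 0.01 for Cd8b1; in polysomal RNA, -0.05 to 0.00 for Cd5 and -0.09 to 0.05 for Cd6; in the difference of effects, -0.25 to 0.03 for Cd27, -0.07 to 0.12 for Cd28, 0.00 to 0.08 for Cd5 and -0.11 to 0.05 for Cd6; in 4EGI-1 cells, -0.05 to 0.03 for Cd5, -0.03 to 0.18 for Cd4 and -0.09 to 0.02 for Cd8a; and in control cells, -0.18 to 0.10 for Cd27, -0.11 to 0.02 for Cd6 and -0.04 to 0.15 for Cd8b1. Signal near the filter level limits Cd5, Cd6, Cd44 and, with 4EGI-1, Cd52, and 3 arrays per group from 1 clone limit all values.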
